A study of Mus musculus with 6 samples.

Results

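Elastic fibres are the part of the extracellular matrix that lets tissue recoil, and 9 mouse genes for their structural proteins were followed here: the fibulins Efemp1, Efemp2, Fbln1, Fbln2 and Fbln5, the fibrillins Fbn1 and Fbn2, elastin (Eln) and Emilin1. Members were all probe sets assigned to exactly 1 of these genes. This gave 14 of the 45037 probe sets on the array, from 7 of the 9 genes. Efemp2 and Fbn1 had no probe set under their name in the probe table used here, so their RNA was not measured. They appear below only in the search of the sequence before their starts. Fibrillins form microfibrils, on which elastin is laid down and cross-linked, fibulins bind both and guide that assembly, and EMILIN1 sits at the boundary of elastin and microfibril. Fibrillin microfibrils also hold latent TGF-beta in the matrix. Elastic fibres are best known from artery, lung and skin, not from embryonic stem cells.

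The study asked how RNA levels change in mouse embryonic stem cells when Panct1, a long noncoding RNA, is depleted by RNA interference. Oct4-Gip ES cells, a line with an Oct4 reporter, received 800 ng of esiRNA per 60000 cells, and RNA was taken 72 hours later. An esiRNA is a pool of short interfering RNAs made by enzymatic digestion of a long double-stranded RNA. The Panct1 knockdown group (3 arrays) received an esiRNA against Panct1, and the Luciferase control group (3 arrays) one against Luciferase, which these cells do not have. Both groups were kept in serum and LIF with the same transfection reagent. The labels do not say that the arrays came from separate cultures, so errors and p-values measure the spread among these arrays alone, some or all of which may be technical. The 9 genes were listed with the contrast already known, and Efemp1 had the largest rise of all 45037 probe sets. Their differences, intervals and calls are therefore a description of these arrays and no independent evidence, and no p-values are printed for them.

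Signals are log2 values from Affymetrix Mouse430 version 2 arrays, so a difference of 1 is a doubling. The lower quartile of each array lay between 4.65 and 4.70 and the median between 6.07 and 6.09. A probe set under the lower quartile is close to background, and its fold change is then uncertain. In bulk RNA, more cells that express a gene and more RNA per cell cannot be told apart. A probe set was called when limma's adjusted p over all probe sets was under 0.05, and "rose" and "fell" are used for such calls. By this rule 6565 probe sets (14.6%) were called, 7.82% as risen and 6.76% as fallen, and without Luciferase control replicate 1 the number was 4266. The ES cell markers were high in both groups: Pou5f1 had a mean of 13.93 in controls and 13.69 in knockdown, Sox2 13.05 and 12.91, Nanog 12.57 and 12.71, and Zfp42 13.45 and 13.03. In limma's fit over all genes 4 of 8 ES cell markers fell and 0 rose, where 11.3% of all genes fell and 12.9% rose. Pou5f1 fell by 0.24, Zfp42 by 0.42, Esrrb by 0.50 and Utf1 by 0.20 (the last pair chosen for naming once their values were known).

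Sequence upstream of the start sites was taken from RefSeq (build GRCm38.p6) to show what lies before the 2 members that rose. Windows of 250 bases before an annotated start were searched for 7 of the 9 genes, 11 windows in all. These 7 are not the 7 measured genes: Efemp2 (3 windows) and Fbn1 (1 window) are among them, and Eln and Fbn2 are not. The search of member windows skipped a chromosome that the shares over all windows include. No window was searched for Eln or Fbn2, so nothing is said of motifs before them. The bases shown are those outside the annotated gene, 5′ to 3′, and capitals mark a match to any of the 8 motifs named after them.
Efemp1, chr11:28852955-28853153, plus strand: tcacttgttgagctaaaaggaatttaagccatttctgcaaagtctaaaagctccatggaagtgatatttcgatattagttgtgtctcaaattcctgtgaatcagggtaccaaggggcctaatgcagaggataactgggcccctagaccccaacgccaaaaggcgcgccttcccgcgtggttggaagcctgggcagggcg
Fbln1, chr15:85205699-85205948, plus strand: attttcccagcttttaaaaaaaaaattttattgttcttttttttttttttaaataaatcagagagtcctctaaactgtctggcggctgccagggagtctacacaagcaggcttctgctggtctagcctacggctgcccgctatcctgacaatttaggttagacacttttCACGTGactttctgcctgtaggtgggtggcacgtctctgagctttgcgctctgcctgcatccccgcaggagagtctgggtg

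The motifs, searched on both strands, were AP-1 (TGACTCA), TEAD (CATTCC), the GC box of Sp1 (GGGCGG), the TATA box (TATAAA), the CCAAT box (CCAAT), the E-box (CACGTG), SMAD (GTCTAGAC) and STAT (TTCNNNGAA). The GC box was the most frequent among the members, in 8 of 11 windows, against 32.7% of all 32851 windows of this length. That share was not matched for GC content, which was 46.4% to 78.8% in the member windows and mostly above the median of all windows. Enrichment was not tested. By gene it was found in 6 of 7, and no share by gene was computed over all genes. All 3 windows of Efemp2, whose RNA was not measured, are among the 8, with GC contents from 59.2% to 78.8%. Several of the member windows overlap, as genes with several starts were counted at each, and GC boxes can overlap each other. The Efemp1 window held 1 match over its 250 bases, a GC box that begins 29 bases before the start and lies past the bases shown. The Fbln1 stretch holds an E-box 81 bases before the start, a motif found in 6.02% of windows. The second annotated start of Fbln1, whose window overlaps the first, has the same E-box 140 bases and a GC box 11 bases before it. CCAAT was found before 1 start of Fbln5, against 33.8% of all windows. For AP-1, TEAD, TATA, SMAD and STAT there was no match in the members' windows, and these letters occur in 4.46%, 12.6%, 12.4%, 0.167% and 7.02% of all windows. The Emilin1 window held none of the 8 motifs. GC content was 53.6% before Efemp1 and 63.2% before Emilin1, beside a median of 52.4% over all windows. CpG dinucleotides numbered 10 before Efemp1 and 4 before Emilin1, beside a median of 6.

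Of the 14 member probe sets 2 rose, 1 fell and 11 were not called, where 14.6% of all probe sets were called. Efemp1 rose 9.0-fold, Fbln1 rose 1.21-fold in 1 of 3 probe sets, and Emilin1 fell by 0.48 on the log2 scale in 1 of 2. Fbln2, Fbln5, Fbn2 and Eln gave no call. With a repeated quantile normalisation 1 probe set rose and 1 fell. The median difference of the 14 was 0.03, beside -0.02 over all probe sets, and the median size of difference, sign set aside, was 0.17 beside 0.11. Knockdown and control arrays did not overlap for 5 of the 14, and for 30.4% of all probe sets. With 1 probe set per gene, the brightest, 2 of 7 genes rose and 1 fell, where 24.2% of 18193 genes were called.

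**Figure D1:**
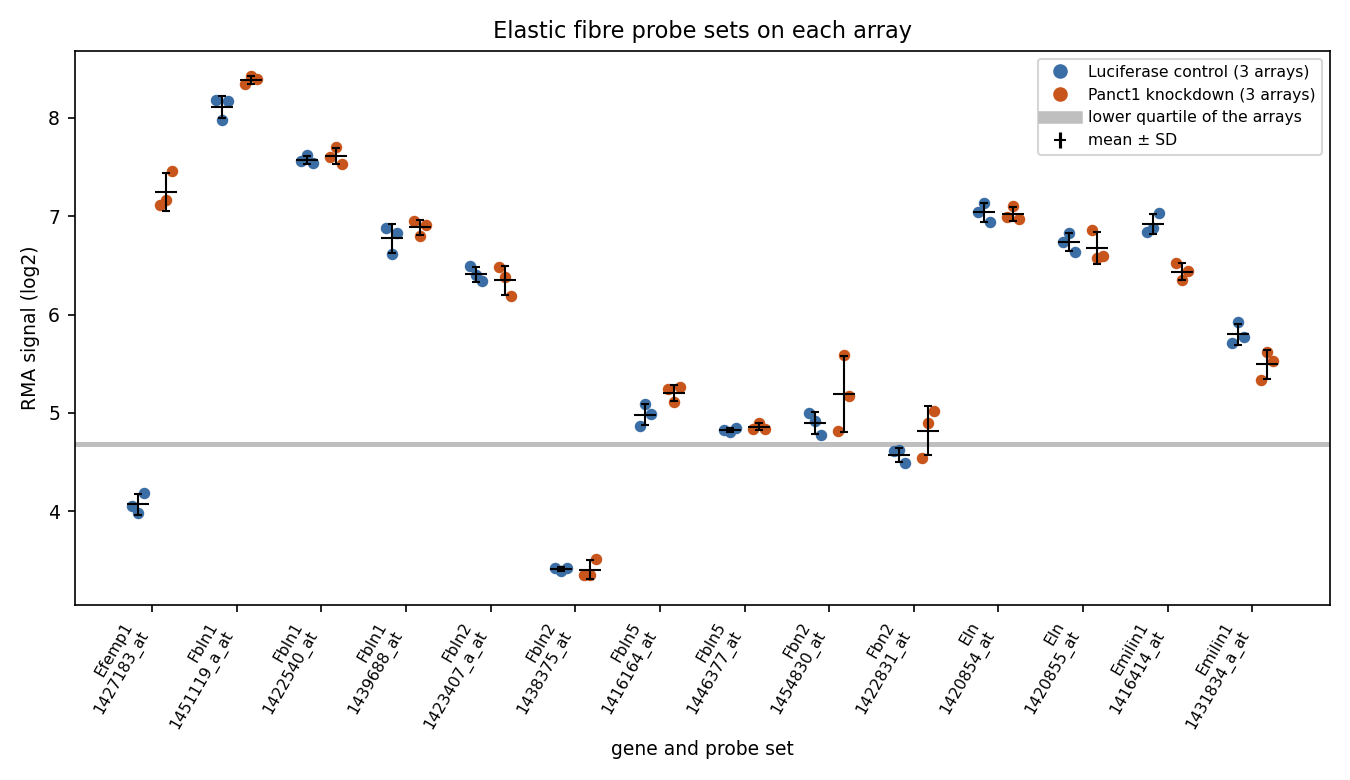
RMA signal (log2) of the 14 member probe sets on each of the 6 arrays, with Luciferase control in blue, Panct1 knockdown in orange, bars for mean ± SD (n = 3) and a grey band for the lower quartile of the arrays (4.65 to 4.70). Efemp1 goes from below the band to above 7, while the groups of most other probe sets lie on top of each other.

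Efemp1 encodes fibulin-3, a short fibulin of basement membranes and of the matrix around vessels and in the eye. Its single probe set read 4.05, 3.98 and 4.19 on the control arrays and 7.11, 7.16 and 7.46 on the knockdown arrays. All 3 control values were below the lower quartile and all 3 knockdown values above the median, with a gap of 2.92 between the highest control and the lowest knockdown array. The mean went from 4.07 ± 0.11 (SD, n = 3) to 7.24 ± 0.19, a log2 difference of 3.17 (SE 0.10, 95% interval 2.93 to 3.41). Over the alternatives in which it was measured the difference stayed between 3.06 and 3.24. The 9.0-fold (95% interval 7.63 to 10.6) is thus a ratio to a level near background.

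Fbln1 encodes fibulin-1, a long fibulin that binds fibronectin, laminin and elastin and is made as several splice variants. Its brightest probe set, 1451119_a_at, read 8.18, 7.98 and 8.17 in controls and 8.34, 8.42 and 8.39 in knockdown. The groups were apart by 0.16, less than the 0.20 between the extreme control arrays. The difference was 0.27 (SE 0.08, 95% interval 0.10 to 0.45). This call was lost in 8 of 13 alternatives, among them the removal of any 1 of the 6 arrays, with differences from 0.21 to 0.31. The other probe sets of Fbln1 differed by 0.04 (95% interval -0.13 to 0.20) for 1422540_at and 0.11 (-0.09 to 0.31) for 1439688_at. In both, the groups overlapped.

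Fbln5 encodes fibulin-5, which binds elastin and lysyl oxidases and is required for elastic fibres in mice. Probe set 1416164_at read 4.87, 5.09 and 4.99 in controls and 5.24, 5.11 and 5.26 in knockdown. The knockdown arrays were all higher, by as little as 0.02, and the difference of 0.22 (SE 0.08, 95% interval 0.04 to 0.40) was not called. Its second probe set, 1446377_at, held between 4.81 and 4.90 on all 6 arrays and differed by 0.03 (95% interval -0.11 to 0.17). Fbln2 encodes fibulin-2, a long fibulin of basement membranes and of developing heart valves. Its probe set 1423407_a_at read 6.49, 6.40 and 6.34 in controls and 6.48, 6.38 and 6.19 in knockdown, with overlapping groups and a difference of -0.06 (95% interval -0.26 to 0.14). The other, 1438375_at, was below the lower quartile on all 6 arrays (3.35 to 3.52), so it says little about Fbln2. Among the 4 fibulin genes measured, the difference of Efemp1 thus stood beside values of -0.06 to 0.27. Whether the fibulins differ from each other was not tested, since Efemp1 was chosen for its rise.

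**Figure D2:**
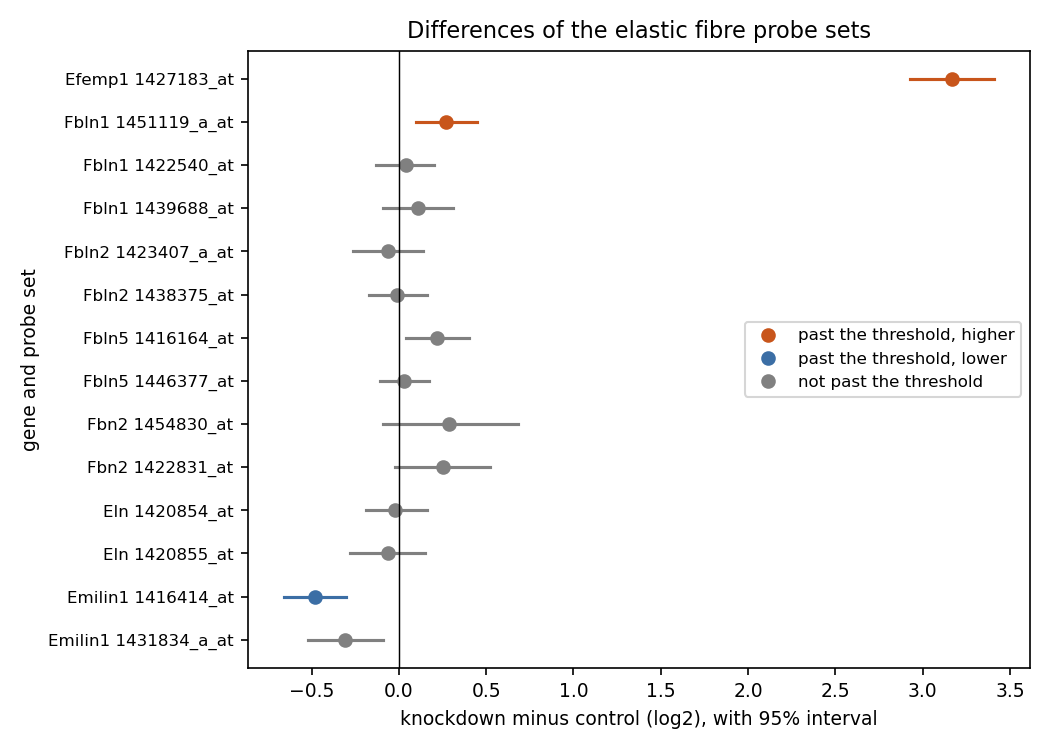
Log2 difference, knockdown minus control, of each member probe set with its 95% interval from limma, coloured by call (adjusted p under 0.05 over all probe sets). Efemp1 lies at 3.17, Emilin1 1416414_at at -0.48, and the other 12 lie between -0.31 and 0.29.

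Fbn2 encodes fibrillin-2, the fibrillin of developing tissue. Probe set 1454830_at read 5.00, 4.92 and 4.78 in controls and 4.82, 5.59 and 5.17 in knockdown, and 1422831_at read 4.61, 4.62 and 4.49 in controls and 4.54, 4.90 and 5.02 in knockdown. In both probe sets knockdown replicate 1 lay among the controls while knockdown replicates 2 and 3 were above them. The differences of 0.29 (SE 0.17, 95% interval -0.09 to 0.68) and 0.25 (SE 0.12, 95% interval -0.02 to 0.52) were not called. Without knockdown replicate 1 they were 0.48, not called, and 0.39, called as risen. Without knockdown replicate 2 they were 0.10 and 0.21. The SD of 1454830_at among knockdown arrays, 0.39, was the widest of any member in either group, and all Fbn2 signals were under the arrays' median.

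Eln encodes tropoelastin, the soluble precursor of elastin. Probe set 1420854_at read 7.04, 7.13 and 6.94 in controls and 6.99, 7.10 and 6.97 in knockdown, and 1420855_at read 6.74, 6.83 and 6.64 against 6.86, 6.57 and 6.59. The groups overlapped in both. The differences were -0.02 (95% interval -0.19 to 0.16) and -0.06 (95% interval -0.28 to 0.15), and their signals lay above the arrays' median.

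Emilin1 encodes a glycoprotein that binds elastin and fibulin-5 and restrains the maturation of TGF-beta. Probe set 1416414_at read 6.84, 6.88 and 7.03 in controls and 6.52, 6.35 and 6.44 in knockdown. Every knockdown array was below every control array, by 0.32 or more. The mean went from 6.92 ± 0.10 (SD, n = 3) to 6.44 ± 0.09, so it fell by 0.48 (SE 0.08, 95% interval -0.66 to -0.30), a level 0.717 times that of controls. The call held in all 13 alternatives, with differences from -0.52 to -0.42. The dimmer probe set, 1431834_a_at, read 5.71, 5.92 and 5.77 in controls and 5.33, 5.62 and 5.53 in knockdown. Its groups did not overlap either, and its difference of -0.31 (95% interval -0.52 to -0.09) was not called.

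The genes nearest to Efemp1 over the 6 arrays were found by centring each gene on its control mean and taking the root mean square difference from Efemp1. They were Tagln (0.38), which encodes transgelin, an actin-binding protein, Anxa3 (0.39), an annexin, Slc39a8, a zinc importer, Tmcc3, and Krt19, a keratin of simple epithelia. All 5 differed by between 2.40 and 2.65 on the log2 scale. The 3.17 of Efemp1 is not ranked against these, since its controls lay below the lower quartile while the control means of the 5 were 6.68 to 9.11. As the measure is set almost wholly by the difference between groups, it names genes with a rise of like size. None of the 5 is a structural protein of elastic fibres.

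**Figure D3:**
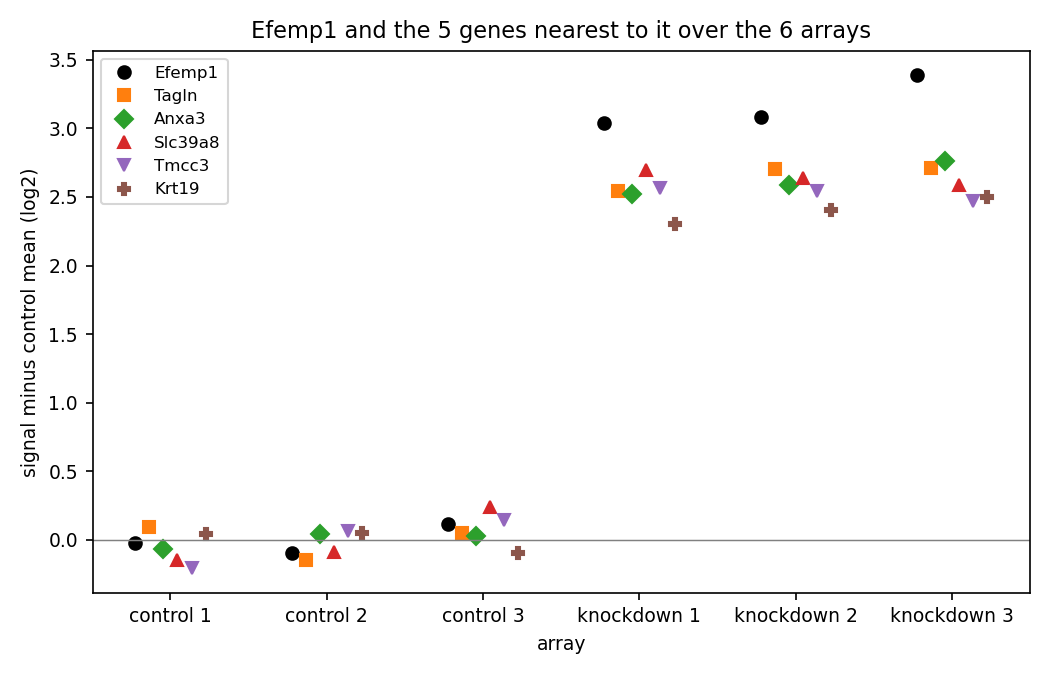
Signal minus the control mean (log2) of Efemp1 and its 5 nearest genes on the 6 arrays. All 6 genes lie near 0 on the controls, and all 6 lie at least 2 above it on the knockdown arrays, where the mean differences of the 5 were 2.40 to 2.65 and that of Efemp1, measured against controls below the lower quartile, was 3.17.

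Other genes of elastic fibre assembly and turnover were taken from a list of 58, of which 54 had a probe set of their own. In limma's fit over 18193 genes, 13 of the 54 rose and 5 fell, where 12.9% of all genes rose and 11.3% fell. Their median difference was 0.08, beside -0.02 over all genes. Their groups of arrays did not overlap for 26 of 54, and for 38.3% of all genes.

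Among proteins that sit on microfibrils, 2 of 5 rose. Mfap5, a small glycoprotein of microfibrils (MAGP-2), read 7.27, 7.05 and 6.93 in controls and 7.65, 7.99 and 8.02 in knockdown. All knockdown arrays were higher, and the difference was 0.80 (SE 0.12; limma adjusted p = 0.00141), with both of its probe sets risen. Mfap2, its relative MAGP-1, rose by 0.31 (limma adjusted p = 0.0120), a call lost without knockdown replicate 2 (difference 0.28), and by 0.20 with the mean of its 2 probe sets. Vcan (versican) at 0.26, Mfap3 at 0.18 and Mfap4 at -0.01 were not called.

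The latent TGF-beta binding proteins, which tie the growth factor to fibrillin, went both ways. Ltbp4, which also binds fibulin-4 and fibulin-5, read 9.44, 9.19 and 9.42 in controls and 8.82, 8.89 and 8.96 in knockdown, and fell by 0.46 (SE 0.08; limma adjusted p = 0.00390). Ltbp1 rose by 0.48 (limma adjusted p = 0.0160) in 1 of 3 probe sets. That call was lost on leaving out knockdown replicate 2 (difference 0.44) or control replicate 2 (0.39) or 3 (0.42), and with the mean of its probe sets (0.16, adjusted p = 0.115). Adjusted p-values for Ltbp1 ranged from 0.00154 to 0.115 over 14 alternatives. Ltbp3 at 0.32 and Ltbp2 at -0.05 were not called, and Ltbp2 was below the lower quartile on all 6 arrays. Of the ligands, Tgfb2 went from 5.29 ± 0.23 (SD, n = 3) to 6.06 ± 0.11 and rose by 0.77 (limma adjusted p = 0.00149), with 3 of 4 probe sets risen. Tgfb1 differed by 0.00 and Tgfb3 by 0.17, and neither was called.

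Lysyl oxidases cross-link tropoelastin, and of the 4 measured 0 were called by limma, 0 also at an unadjusted p under 0.05. Lox differed by 0.07 (SE 0.07; limma adjusted p = 0.578) and Loxl1, the member tied to elastin, by 0.11 (SE 0.09; limma adjusted p = 0.420). The Lox signal was low, with a control mean of 5.34, under the arrays' median. Its other probe sets were below the lower quartile on 5 and 6 of the 6 arrays. Loxl3 and Loxl4 differed by 0.11 and -0.04, though 1 of 2 probe sets of Loxl4 rose, by 0.48. Bmp1, the protease that activates lysyl oxidase, rose by 0.54 (limma adjusted p = 3.69e-04) in 1 of 3 probe sets, the lowest of which differed by -0.28. With the mean of the probe sets it was at 0.10 and not called.

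Of 7 ADAMTS and ADAMTSL genes, whose products bind fibrillin, Thsd4 (ADAMTSL6) rose by 0.43 (limma adjusted p = 0.00126) and Adamtsl4, linked to the fibrillin of the lens zonule, fell by 0.47 (limma adjusted p = 0.00165). All 3 control arrays of Thsd4 were below the lower quartile, so the size of its rise is uncertain, and its call was lost with the mean of its 2 probe sets (0.19). Furin, which cuts profibrillin and is named outside the rule after its values were seen, rose by 0.41 (limma adjusted p = 0.00140). Pomgnt1, a glycosyltransferase, fell by 0.30 (limma adjusted p = 0.0122). The EMILIN relatives Emilin2, Emilin3, Mmrn1 and Mmrn2 were not called in the gene fit, with differences of 0.14, 0.23, -0.05 and -0.20. For Mmrn2, noticed after its values were seen, 3 of 4 probe sets fell in the fit over all probe sets, the lowest at -0.75. The fibulin relatives Hmcn1 (0.27) and Fbln7 (-0.15) were not called. Hmcn1 and Mmrn1 were below the lower quartile on all 6 arrays.

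Among elastin receptors, Glb1, whose splice variant is the elastin-binding protein, read 10.21, 10.16 and 10.27 in controls and 9.68, 9.48 and 9.28 in knockdown, and fell by 0.73 (SE 0.10; limma adjusted p = 8.53e-04). Whether the 1 probe set of Glb1 reads that variant or other Glb1 transcripts was not tested. The partners Ctsa and Neu1 differed by 0.01 and 0.23 and were not called. Itgav, an integrin subunit that binds fibrillins and fibulin-5, rose by 0.56 (limma adjusted p = 0.00269) in 1 of 5 probe sets, and was not called with their mean (0.06).

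Of 11 elastolytic proteases and their inhibitors 5 rose and 1 fell. The gelatinase Mmp2 rose by 0.53 (limma adjusted p = 0.00112), with both probe sets called, and its membrane-bound activator Mmp14 by 0.53 (limma adjusted p = 0.00110) with 2 of 3, or 0.33 with the mean of the 3. The lysosomal protease Ctsl rose by 0.58 (limma adjusted p = 3.02e-04) in 1 of 2 probe sets, and by 0.23 with the mean of both. The inhibitors split: Timp2 rose by 0.63 (limma adjusted p = 0.00120) with 3 of 6 probe sets, or 0.23 with the mean of the 6. Timp3, named outside the rule after its values were seen, rose by 0.33 (limma adjusted p = 0.0216) with 2 of 4. The call of Timp3 was not followed over the alternatives. Timp1 fell by 0.40 (limma adjusted p = 0.0204), a call lost without control replicate 1 (difference -0.36) or 3 (-0.39). The elastases Elane, Mmp9 and Mmp12 were not called, at 0.02, 0.08 and 0.05, and Mmp12 was below the lower quartile on all 6 arrays.

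**Figure D4:**
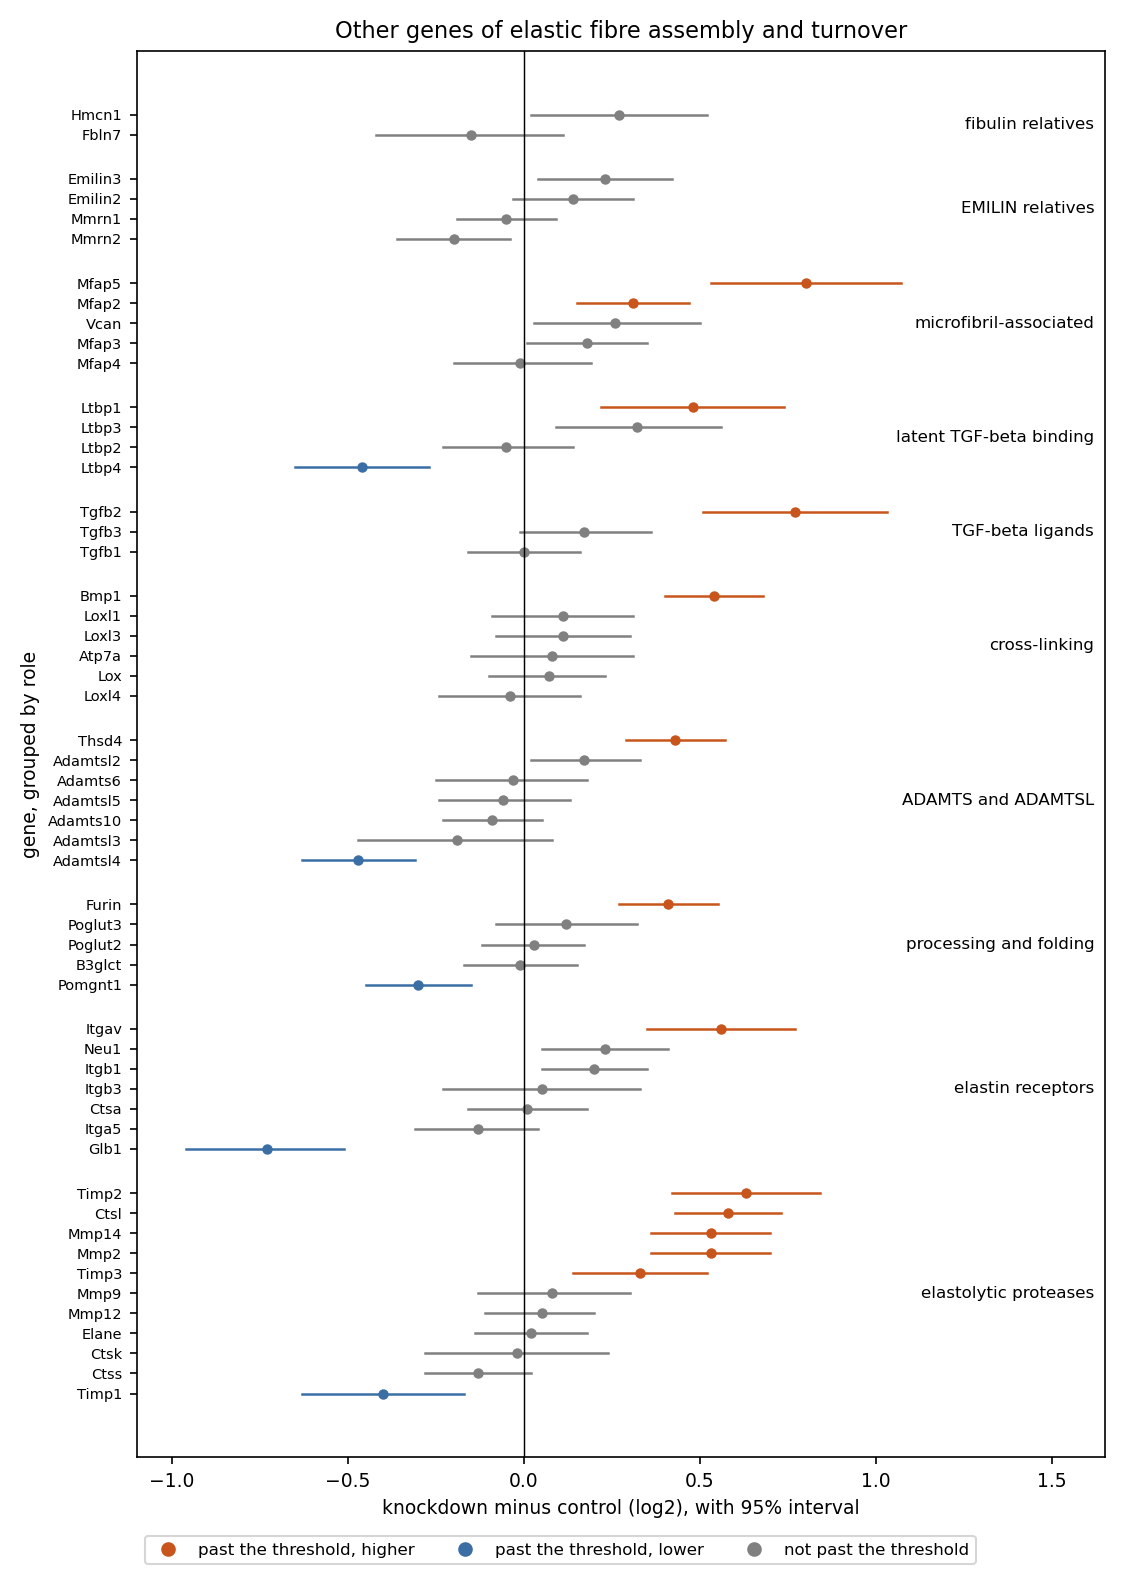
Log2 difference, knockdown minus control, of the 54 other genes of elastic fibre assembly and turnover, grouped by role, with 95% intervals and coloured by call (adjusted p under 0.05 over all genes). Calls lie on both sides of 0, 13 above and 5 below, and the lysyl oxidases lie near 0.

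Elastic fibre genes are also transcribed by fibroblasts and smooth muscle, so markers of such cells were read on the same arrays. Their calls are from limma's fit over all genes, where 12.9% of all genes rose and 11.3% fell. Of 12 fibroblast markers 3 rose and 0 fell: Col3a1 by 0.63, Twist2 by 0.61 and Col1a1 by 0.28. Col3a1 read 4.77, 4.49 and 4.24 in controls, the last 2 below the lower quartile, so the size of its rise is uncertain. The mean of the 12 log2 signals was 5.47 to 5.55 on the control arrays and 5.59 to 5.64 on the knockdown arrays. Lum and Fap were below the lower quartile on every array, and Pdgfra, Pdgfrb, Dcn, Col1a2 and Thy1 differed by between -0.09 and 0.05 without a call. Postn differed by 0.15 and Prrx1 by -0.16, also without a call. Of 8 smooth muscle markers 4 rose: Tagln by 2.65, Cnn1 by 1.34, Acta2 by 1.15 and Smtn by 0.27. Myh11, Myocd, Des and Lmod1 differed by -0.06, 0.00, 0.13 and -0.01 and were not called. The mean of the 8 was 6.91 to 7.04 in controls and 7.61 to 7.70 in knockdown. Of 9 markers of parietal and primitive endoderm 3 rose, Sparc by 0.34, Dab2 by 0.26 and Lamb1 by 0.26, and 2 fell, Gata6, which fell by 0.40, and Sox17, which fell by 0.33. Their mean was 7.48 to 7.54 in controls and 7.43 to 7.54 in knockdown. Of 8 endothelial markers Tek rose by 0.66 and Cdh5 fell by 0.36, with a mean of 6.37 to 6.50 in controls and 6.45 to 6.53 in knockdown. The part of these cell types in the Efemp1 and Emilin1 differences was not tested.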

How the data were processed

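Total RNA of 6 samples was measured on Affymetrix Mouse430 version 2 arrays. The deposited values are log2 signals, which the authors made with GCOS 1.4 and RMA, per the submitters' processing notes. RMA corrects background, quantile-normalises arrays and summarises probe sets, which compresses differences of dim ones. Which arrays were normalised together is not given in the sources used here. All values were used as deposited, without 64 control sets, and no array was left out of the main fits.

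Of 45037 probe sets 34945 had 1 gene symbol in a platform annotation table, 932 several and 9160 none. For 34741, the gene ID was found in RefSeq (GRCm38.p6) and the symbol given there was used, whether or not it differed. Per gene the brightest probe set was taken. Differences were fitted with limma 3.58.1 (lmFit, eBayes; R 4.3.3), group as the only term, two-sided, Benjamini-Hochberg adjusted over all probe sets or all genes. The script was tested on simulated data.

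The members and lists were chosen with earlier results of these data known. The text names all members. Of the related genes it always names Lox, Loxl1, Mfap2, Ltbp1 and Tgfb1, and the 10 largest rises and 10 largest falls among called genes. It also names the 5 genes nearest to Efemp1, 4 ES cell markers and every called marker of other cell types. Further genes named without a call only describe their group. Alternatives were a replicate block, median centring, an intensity trend with robust variance, a second quantile normalisation, array weights, removal of dim or cross-hybridising probe sets, the mean of probe sets per gene, and removal of each array. The number of arrays, 3 per group, limits the precision.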

Additional observations from a re-analysis of the deposited data

How the results depend on the processing

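Over 14 alternatives, the call of 12 of the 14 member probe sets was the same in every alternative that kept them. The exceptions were Fbln1 1451119_a_at, whose call was lost in 8 of 13, and Fbn2 1422831_at, called without Panct1 knockdown replicate 1. Efemp1 was removed by the filter on dim probe sets and kept its call in the other 12. Of 19 named related genes 13 kept their call throughout. With each array left out, 2 to 3 member probe sets, 2 to 4 member genes and 16 to 18 related genes were called. Over all probe sets the range was 4266, without Luciferase control replicate 1, to 5574, and over all genes 3151 to 3978. Repeated quantile normalisation left 2 member probe sets called.

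Replicate numbers did not pair the arrays: deviations of arrays with the same number correlated at -0.16, -0.30 and -0.15. With the replicate block 2 member probe sets, 2 member genes, 17 related genes, 4692 probe sets and 3496 genes were called. Low signal limits Efemp1 and Thsd4 in controls and 1 probe set of Fbln2, all below the arrays' lower quartile. Fbln5 and Fbn2 lie near that quartile, and Fbn2 1422831_at was below it on 4 of 6 arrays. Col3a1 was below it on 2 control arrays. The related genes Hmcn1, Mmrn1, Ltbp2, Mmp12 and Ctss were below it on all 6 arrays, so the lack of a call says little about them.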
